A study of Mus musculus with 9 samples.

Results

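Intratumoral CD8 T cells sorted as high for α2,6-linked sialic acid and positive for PD-1 (SiaHi_PD1pos) were set against the other sorted populations of the same experiment. They made up 3 of the 9 libraries. The others were 3 libraries of sialic acid-high, PD-1-negative cells (SiaHi_PD1neg) and 3 of sialic acid-low, PD-1-positive cells (SiaLo_PD1pos). Genes were chosen by a rule on levels. A peak gene had all 3 SiaHi_PD1pos libraries above all 6 others, and a trough gene had them all below. Of 15292 genes tested, 484 were peak genes and 521 trough genes.

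All mice were labelled wild type and without treatment, so the groups differ in the sorting gate alone as far as the labels say. The tumour is B16-OVA per the labels, a B16 melanoma line carrying chicken ovalbumin, while the series' design text names B16F10. The age and number of animals, any pooling of tumours and the reagent used to stain the sialic acid are not stated in the labels or design text. Nothing in the labels says that the replicates were separate animals, so the p-values below reflect how far these libraries spread, and that spread may be technical.

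α2,6-linked sialic acid caps N-glycans on the cell surface and is added mainly by the Golgi enzyme ST6GAL1. It is abundant on naive lymphocytes and can be bound by some lectins of the Siglec family. PD-1, encoded by Pdcd1, is an inhibitory receptor that T cells express after antigen recognition and keep in chronic infection and tumours. PD-1-positive CD8 T cells in tumours include a self-renewing progenitor state, marked by TCF-1, SLAMF6 and CXCR5 and by the chemokine XCL1, and more differentiated effector-like and exhausted states.

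The labelled cell type was checked in the libraries, which held 9714020 to 15030442 reads in genes. Summed over 10 transcripts that define CD8 T cells, levels were 5645 to 7316 CPM in SiaHi_PD1pos, 1610 to 1753 CPM in SiaHi_PD1neg and 6370 to 7166 CPM in SiaLo_PD1pos. CPM here are TMM-scaled counts relative to library size, and TMM assumes that most genes do not differ. SiaHi_PD1neg also stood apart by transcripts of other cells: MHC class II genes summed to 2698 to 5107 CPM in SiaHi_PD1pos, 16390 to 19060 CPM in SiaHi_PD1neg and 1617 to 2027 CPM in SiaLo_PD1pos. In RNA from whole sorted populations, fewer cells of a type and less RNA per cell cannot be told apart. Within SiaHi_PD1pos, replicate 2 stood apart, with 133300 CPM in cytosolic ribosomal protein genes beside 89250 and 82190 CPM in replicates 1 and 3, and with the highest MHC class II sum.

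**Figure D1:**
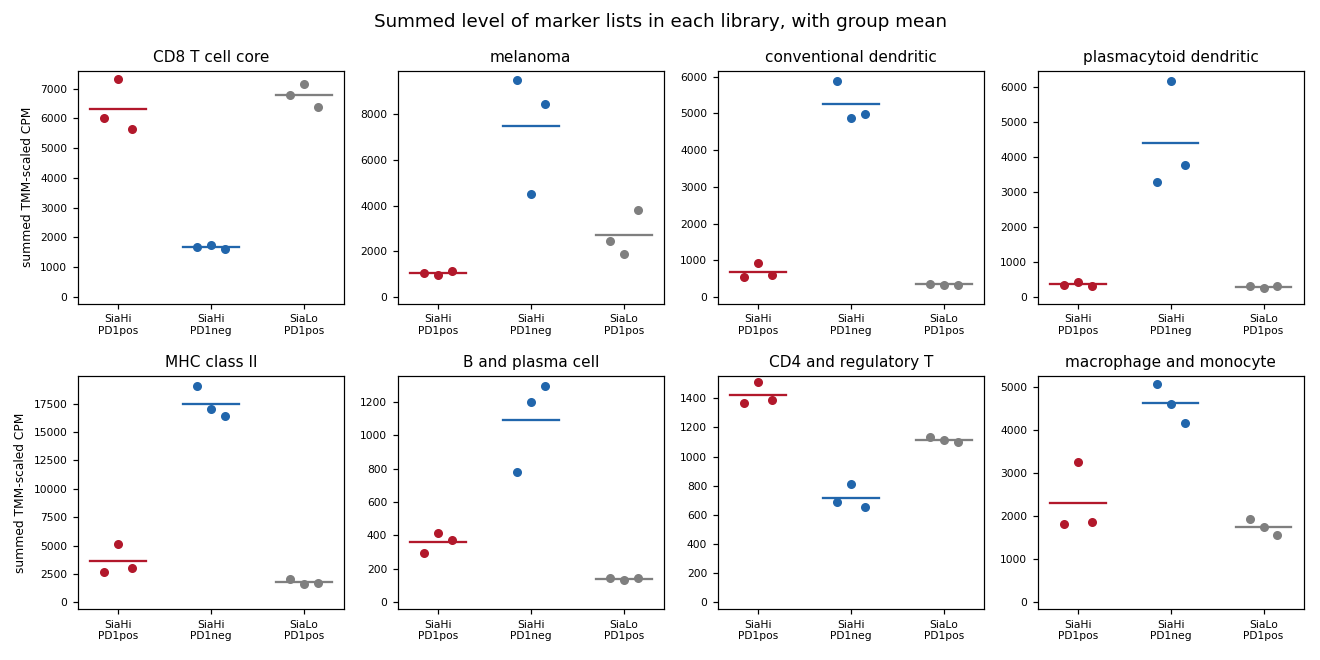
Summed TMM-scaled CPM of 8 marker lists in each library (points) with the mean of each group (lines), SiaHi_PD1pos first. SiaHi_PD1pos has the lowest melanoma sums and the highest CD4 and regulatory T cell sums, of which Ctla4 alone is much (mean 847 CPM). SiaHi_PD1neg has the lowest T cell core and the highest dendritic and MHC class II sums.

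The first comparison asked how SiaHi_PD1pos differed from the equal-weight mean of the other groups. This contrast is the log2 level in SiaHi_PD1pos minus the average of the log2 levels of the others, fitted over all tested genes with edgeR's quasi-likelihood test with a call at an adjusted p (Benjamini-Hochberg) under 0.05. It called 1455 genes higher (9.51% of those tested) and 1171 lower (7.66%). The counts depended on single libraries. They were 760 higher and 587 lower without SiaHi_PD1pos replicate 1, and 969 higher without SiaLo_PD1pos replicate 1. A call against a mean does not place SiaHi_PD1pos at an extreme: 460 of the genes called higher lay between the other groups, 446 of them with SiaLo_PD1pos above, and 374 of the genes called lower lay between them, all with SiaLo_PD1pos below.

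Peak genes, 3.17% of all tested genes, overlapped with these calls in 308 cases, and the other 176 were not called. Trough genes, 3.41%, included 327 called lower and 194 not called. None went against the rule's direction, which the rule itself fixes. Across the peak genes the median difference was 0.87 over SiaHi_PD1neg and 0.38 over SiaLo_PD1pos on the log2 scale, and SiaLo_PD1pos was the nearer group in 432 of 484. Across the trough genes the medians were -2.07 and -0.87, and SiaLo_PD1pos was again the nearer group in 496 of 521. Means lay at least 2-fold beyond both other groups for 67 peak genes and 225 trough genes. At the edge of the rule, Casp4 was just inside the peak genes (lowest SiaHi_PD1pos library 43.417 CPM, highest other 43.403 CPM), Hbs1l was just outside (68.091 against 68.098 CPM), Plcb3 was just inside the trough genes (highest SiaHi_PD1pos library 12.669 CPM, lowest other 12.674 CPM) and Cog4 just outside (37.204 against 37.19 CPM). These 4 are given only as the edge, after their values were seen.

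A stricter test asked for a difference from each group separately, taking the larger of the pairwise p-values and adjusting it over all tested genes. It called 5 genes above both groups (0.0327% of those tested), Dapl1, Tnfsf11, Slamf6, Tnfrsf4 and Nt5e, and 0 below both (0%). At an unadjusted p under 0.05 the counts were 182 above and 303 below. DESeq2 called 19 above and 25 below, and limma-voom 50 and 11. The count above fell to 2 without SiaHi_PD1pos replicate 1 and to 3 without SiaHi_PD1pos replicate 3, SiaHi_PD1neg replicate 1 or any of the 3 SiaLo_PD1pos libraries. The pairwise comparisons behind it called 21% of genes higher and 19.2% lower against SiaHi_PD1neg, and 1.13% higher and 0.268% lower against SiaLo_PD1pos. With each pairwise p adjusted separately, 23 of the 484 peak genes and 18 of the 521 trough genes were called in both comparisons.

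**Figure D2:**
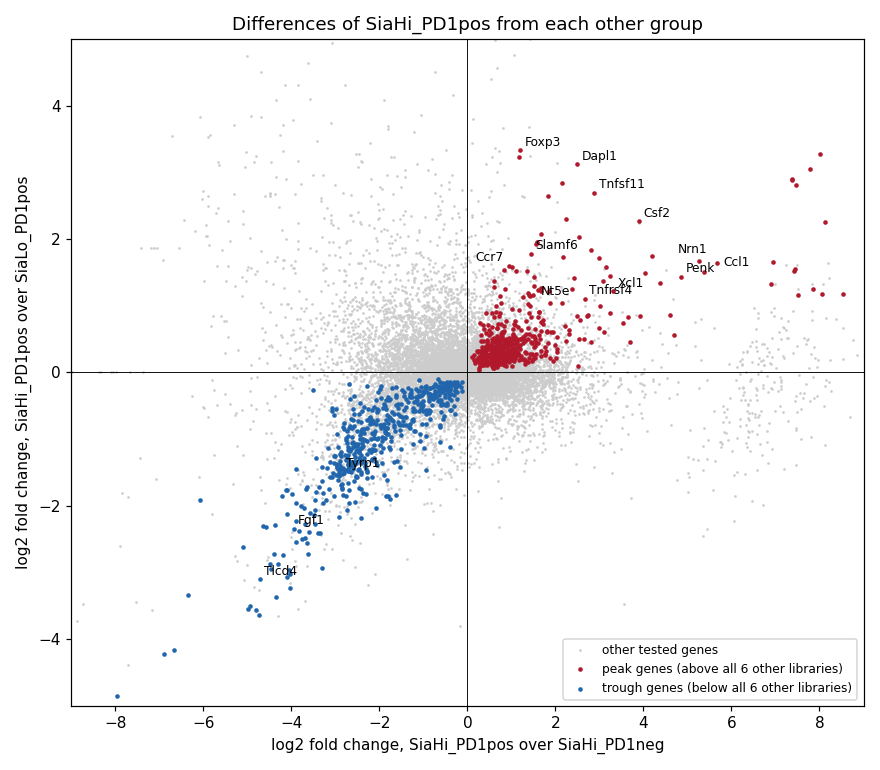
Log2 fold change of SiaHi_PD1pos over SiaHi_PD1neg (horizontal) and over SiaLo_PD1pos (vertical) for each tested gene, TMM scaling, with 484 peak genes in red, 521 trough genes in blue and the other genes in grey (49 genes lie outside the axes). Peak genes sit in the upper right with Dapl1 and Tnfsf11 at least 2 log2 units above both groups, and trough genes extend along a band in which the difference from SiaHi_PD1neg mostly exceeds that from SiaLo_PD1pos.

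Because SiaHi_PD1neg held fewer T cell transcripts, levels were also scaled to the summed counts of the 10 T cell genes (T cell core scaling). The median contrast of all tested genes was -0.86 on this scaling and 0.03 with TMM, so values on it are read against -0.86. Differences from SiaHi_PD1neg shifted by -1.89 and those from SiaLo_PD1pos by 0.11. It left 58 peak genes, 44 of them shared with TMM scaling, and 466 trough genes, 270 of them shared. With DESeq2's size factors 458 peak and 510 trough genes were shared. Of 270 peak genes open to naming (called higher, a mean of at least 5 CPM, a named gene outside receptor segments), 19 were peak genes on both the TMM and the T cell core scaling, among them Tnfsf11, Dapl1, Csf2, Nrn1, Ccl1, Spock2, Penk, Tnfsf4, Xcl1, Tnfrsf4, Crtam, Il1rl1, Il2ra, Gins1 and Ccr8. Of 244 such trough genes 112 were.

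Dapl1 and Tnfsf11 led the peak genes. Dapl1, a death-associated protein-like gene transcribed in naive and memory-like T cells, had 45.1, 48.9 and 41.1 CPM in SiaHi_PD1pos, against 7.94, 9.396 and 6.68 CPM in SiaHi_PD1neg and 4.76, 5.05 and 5.71 CPM in SiaLo_PD1pos, with a contrast of 2.80 (SE 0.17, adjusted p = 5.02e-06). Tnfsf11, which encodes the cytokine RANKL, the ligand of the receptor RANK on dendritic cells and osteoclast precursors, had 45.1, 44.5 and 37.6 CPM in SiaHi_PD1pos, against 3.86, 8.501 and 4.91 CPM in SiaHi_PD1neg and 7.11, 4.98 and 7.61 CPM in SiaLo_PD1pos, with a contrast of 2.78 (SE 0.24, adjusted p = 1.83e-05). The lowest SiaHi_PD1pos library stood 4.38 times above the highest of the 6 others for Dapl1 and 4.42 times for Tnfsf11.

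Slamf6, a homophilic surface receptor of the SLAM family used to identify progenitor exhausted cells, had 162, 119.7 and 168 CPM in SiaHi_PD1pos, against 58.7, 62.7 and 44.5 CPM in SiaHi_PD1neg and 44.9, 37.3 and 48.7 CPM in SiaLo_PD1pos. Nt5e, the ectoenzyme CD73 that turns extracellular AMP into adenosine, had 65.2, 55.1 and 74.05 CPM in SiaHi_PD1pos, against 26.2, 17.7 and 23.8 CPM in SiaHi_PD1neg and 27.4, 22.96 and 28.9 CPM in SiaLo_PD1pos. Tnfrsf4, the costimulatory receptor OX40, had 116, 135 and 112 CPM in SiaHi_PD1pos, against 22.1, 19.98 and 14.9 CPM in SiaHi_PD1neg and 53.9, 56.04 and 58.99 CPM in SiaLo_PD1pos. Their contrasts were 1.61, 1.41 and 1.89. Levels in the other groups overlapped for Nt5e, whereas Tnfrsf4 was higher in every SiaLo_PD1pos library than in any SiaHi_PD1neg library. The adjusted p of the test against both groups was 0.000493 for Dapl1, 0.00382 for Tnfsf11, 0.00882 for Slamf6, 0.0324 for Tnfrsf4 and 0.0388 for Nt5e. Over the 9 fits that leave out 1 library it stayed under the threshold in all 9 for Dapl1 (up to 0.00788) and Tnfsf11 (up to 0.0407). It did so in 7 for Slamf6 (up to 0.076, lost without SiaHi_PD1pos replicate 1 or SiaHi_PD1neg replicate 1), in 3 for Tnfrsf4 (up to 0.288, kept only without a SiaHi_PD1neg library) and in 2 for Nt5e (up to 0.323, kept only without SiaHi_PD1pos replicate 2 or SiaHi_PD1neg replicate 2). On T cell core scaling none of the 5 passed this test, with an adjusted p of 1 each, while Dapl1, Tnfsf11 and Tnfrsf4 remained peak genes.

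The start regions of 3 of these genes are shown because they lead the peak genes and differ in the motif letters they hold. Each sequence is 300 bases from RefSeq on GRCm38.p6, 250 bases before and 50 after the annotated start, read along the gene's strand, and capitals mark the motif matches. Dapl1 lies at chr2:59484403-59484702 (plus strand), Tnfsf11 at chr14:78307994-78308293 (minus strand) and Tnfrsf4 at chr4:156013445-156013744 (plus strand).
Dapl1: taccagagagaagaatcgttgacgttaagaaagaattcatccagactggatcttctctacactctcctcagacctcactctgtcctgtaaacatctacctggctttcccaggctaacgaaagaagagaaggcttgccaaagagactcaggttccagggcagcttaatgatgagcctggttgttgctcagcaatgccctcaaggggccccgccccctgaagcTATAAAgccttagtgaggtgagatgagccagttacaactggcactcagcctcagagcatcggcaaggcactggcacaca
Tnfsf11: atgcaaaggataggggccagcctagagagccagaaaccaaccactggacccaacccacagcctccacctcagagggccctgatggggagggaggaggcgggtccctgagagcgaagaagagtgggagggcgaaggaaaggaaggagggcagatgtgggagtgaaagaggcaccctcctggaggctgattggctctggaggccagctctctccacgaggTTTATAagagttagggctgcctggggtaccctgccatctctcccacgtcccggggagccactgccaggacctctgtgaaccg
Tnfrsf4: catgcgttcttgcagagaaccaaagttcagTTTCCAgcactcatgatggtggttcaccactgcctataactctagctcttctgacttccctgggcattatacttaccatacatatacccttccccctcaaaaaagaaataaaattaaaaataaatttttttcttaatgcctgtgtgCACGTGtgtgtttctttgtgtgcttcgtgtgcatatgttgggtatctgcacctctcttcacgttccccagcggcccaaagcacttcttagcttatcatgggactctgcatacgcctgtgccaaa

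Both strands were searched for 7 motifs: an E-box (CACGTG), the melanocyte M-box (TCATGTG), a TCF/LEF motif (CTTTGA), a RUNX motif (TGTGGT), an NFAT core (TGGAAA), an AP-1 motif (TGANTCA) and a TATA box (TATAAA). The TCF/LEF, RUNX and TATA motifs were added after matches of the others had been seen. None of these shares its full letters with another. Dapl1 held a TATA box starting 29 bases before the start on its own strand, and Tnfsf11 held those letters on the opposite strand, 32 bases before the start. Tnfrsf4 held an E-box 74 bases and an NFAT core, on the opposite strand, 220 bases before the start. Of the 270 nameable peak genes 209 matched a promoter entry. Shares with a motif are given for these, for the 10925 tested genes with an entry and for all 27025 promoters, in that order. They were 9.09%, 7.8% and 14.2% for the TATA box, 12.4%, 9.93% and 7.24% for the E-box and 20.1%, 17.1% and 21.5% for the NFAT core. They were 6.22%, 5.12% and 7.93% for AP-1, 10%, 12.2% and 16.2% for TCF/LEF, 16.3%, 13.1% and 16.9% for RUNX and 0.478%, 2.32% and 3.74% for the M-box. For the TATA box, NFAT core, AP-1 and RUNX motifs the share of peak genes thus lay above that of the tested genes and below that of all promoters. A match describes letters in the window and is no evidence of binding.

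Costimulatory receptors and ligands were mostly called higher. Of 21 genes 16 were higher (76.2%, against 9.51% of all tested genes), 0 lower and 5 not called, and 7 were peak genes (33.3%, against 3.17% of all tested genes), 4 of them on T cell core scaling as well. The list's median contrast was 0.95 with TMM and 0.05 on T cell core scaling, where all genes were at -0.86. TNF superfamily ligands were prominent among them. Tnfsf8, the CD30 ligand, had 57.2, 45.97 and 58.9 CPM in SiaHi_PD1pos, against 16.4, 26.1 and 12.5 CPM in SiaHi_PD1neg and 14.4, 14.7 and 13.5 CPM in SiaLo_PD1pos, with a contrast of 1.74 (SE 0.20, adjusted p = 0.000132). Tnfsf4, the OX40 ligand, had 35.9, 16.7 and 34.5 CPM in SiaHi_PD1pos, against 2.696, 0.969 and 0.393 CPM in SiaHi_PD1neg and 11.8, 9.17 and 13.3 CPM in SiaLo_PD1pos, with a contrast of 2.86 (SE 0.37, adjusted p = 0.000294). It was thus a peak gene together with its receptor Tnfrsf4. Against SiaLo_PD1pos alone, the difference of Tnfsf4 was 1.345 and not called (pairwise edgeR test, adjusted p = 0.2249). Tnfsf14 (the cytokine LIGHT) had 46.1, 63.9 and 28.96 CPM in SiaHi_PD1pos, against 11.9, 12.2 and 19.8 CPM in SiaHi_PD1neg and 24.2, 20.9 and 14.6 CPM in SiaLo_PD1pos, and its contrast of 1.44 was smaller without SiaHi_PD1pos replicate 2 (1.14, adjusted p = 0.0122).

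Crtam, a nectin-like adhesion receptor induced when CD8 T cells are activated, had 174, 237 and 159 CPM in SiaHi_PD1pos, against 25.6, 25.6 and 19.4 CPM in SiaHi_PD1neg and 94.8, 104 and 85.6 CPM in SiaLo_PD1pos, with a contrast of 2.00 (SE 0.14, adjusted p = 5.02e-06). Tnfrsf18, the receptor GITR, had 90.8, 126 and 84.5 CPM in SiaHi_PD1pos, against 36.6, 40.04 and 26.4 CPM in SiaHi_PD1neg and 70.8, 73.1 and 71.5 CPM in SiaLo_PD1pos. SiaLo_PD1pos lay between the other groups for both, and no library of SiaHi_PD1pos overlapped it. Counted by name among all 16 tested TNF ligand genes, a family picked after seeing the data, 8 were higher (50%, against 9.51% of all tested genes) and 1 lower (6.25%, against 7.66%). Of these 16, 6 were peak genes (37.5%, against 3.17%), which added Lta (lymphotoxin-α, contrast 1.32) and Ltb, named after its values were seen, to those above.

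**Figure D3:**
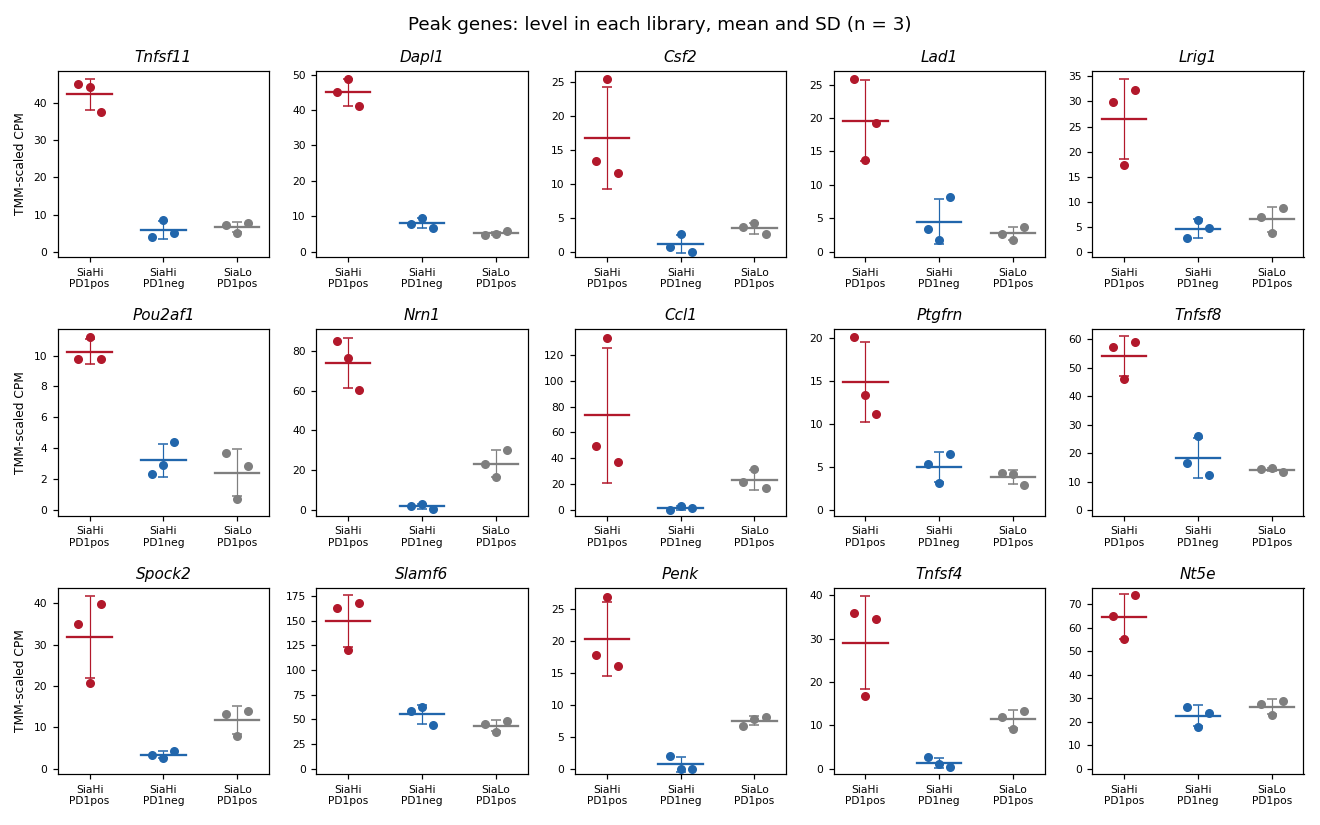
TMM-scaled CPM of the 15 leading peak genes in each of the 9 libraries (points), with group means and SDs (lines and bars, n = 3 each) and a separate axis from 0 for each gene, SiaHi_PD1pos on the left. Dapl1, Tnfsf11, Tnfsf8 and Slamf6 are low in both other groups, though every SiaHi_PD1neg library of Dapl1 lies above every SiaLo_PD1pos library. Nrn1, Ccl1, Spock2, Penk and Tnfsf4 are intermediate in SiaLo_PD1pos and lowest in SiaHi_PD1neg.

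Among chemokine and cytokine genes Xcl1, Ccl1 and Csf2 were peak genes, each with its highest level in SiaHi_PD1pos replicate 2. Xcl1, the chemokine that attracts XCR1-positive dendritic cells, had 534, 937 and 448 CPM in SiaHi_PD1pos, against 59.6, 55.7 and 79.7 CPM in SiaHi_PD1neg and 312, 264 and 251 CPM in SiaLo_PD1pos, with a contrast of 2.26 (SE 0.19, adjusted p = 1.83e-05). Ccl1, the ligand of the receptor CCR8, had 49.7, 133 and 37.1 CPM in SiaHi_PD1pos, against 0, 2.83 and 1.47 CPM in SiaHi_PD1neg and 21.7, 31.6 and 16.9 CPM in SiaLo_PD1pos, with a contrast of 3.66 (SE 0.50, adjusted p = 0.000384). Csf2, the cytokine GM-CSF, had 13.3, 25.4 and 11.6 CPM in SiaHi_PD1pos, against 0.729, 2.54 and 0 CPM in SiaHi_PD1neg and 3.62, 4.19 and 2.595 CPM in SiaLo_PD1pos, with a contrast of 3.08 (SE 0.57, adjusted p = 0.00278). Without replicate 2 the contrasts were 1.88 (adjusted p = 1.13e-05), 2.90 (0.00215) and 2.65 (0.0204). Of 18 tested chemokine and cytokine genes 7 were higher (38.9%, against 9.51% of all tested genes), 1 lower (5.56%, against 7.66%) and 10 not called. Xcl1, Ccl1 and Csf2 were the 3 peak genes among them (16.7%, against 3.17%), and all 3 were peak genes on T cell core scaling too. The sum of the 18 did not follow them, with 2260, 3731 and 2094 CPM in SiaHi_PD1pos, 1694 to 2232 CPM in SiaHi_PD1neg and 2656 to 3237 CPM in SiaLo_PD1pos, so that replicates 1 and 3 of SiaHi_PD1pos lay below every SiaLo_PD1pos library. Ccr8, the receptor for CCL1, was a peak gene as well, with 62.2, 57.4 and 64.05 CPM in SiaHi_PD1pos, against 4.15, 5.52 and 4.52 CPM in SiaHi_PD1neg and 48.7, 41.2 and 43.8 CPM in SiaLo_PD1pos.

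Nrn1, a small membrane-anchored protein first described in neurons, had the highest TMM contrast but one among the 15 leading peak genes, at 3.47 (SE 0.27, adjusted p = 8.24e-06). It had 84.96, 76.4 and 60.3 CPM in SiaHi_PD1pos, against 1.895, 2.98 and 0.687 CPM in SiaHi_PD1neg and 23, 16.5 and 30.4 CPM in SiaLo_PD1pos. Penk, the precursor of enkephalin peptides, had 17.8, 26.9 and 16.1 CPM in SiaHi_PD1pos, against 1.97, 0 and 0 CPM in SiaHi_PD1neg and 6.71, 7.799 and 8.04 CPM in SiaLo_PD1pos, with a contrast of 3.14 that ranged between 2.85 and 6.22 without single libraries. Ccl1 had the highest contrast of the 15, 3.66. Penk was at 0 in 2 SiaHi_PD1neg libraries and Ccl1 in 1, so the size of their difference from that group is imprecise. The difference of Penk from SiaLo_PD1pos alone was 1.43 and not called (pairwise edgeR test, adjusted p = 0.6085).

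Of the remaining leading peak genes, Lad1, an epithelial anchoring filament protein, Lrig1, a transmembrane inhibitor of growth factor receptors, Pou2af1, a coactivator of OCT factors in lymphocytes, Ptgfrn, an immunoglobulin-family membrane protein, and Spock2, an extracellular proteoglycan, had contrasts of 2.50, 2.28, 1.88, 1.76 and 2.34. Lrig1 had 29.9, 17.4 and 32.3 CPM in SiaHi_PD1pos, against 2.62, 6.34 and 4.81 CPM in SiaHi_PD1neg and 6.97, 3.75 and 8.74 CPM in SiaLo_PD1pos. Pou2af1 had 9.81, 11.2 and 9.76 CPM in SiaHi_PD1pos, against 2.33, 2.91 and 4.42 CPM in SiaHi_PD1neg and 3.69, 0.722 and 2.85 CPM in SiaLo_PD1pos, with 1 SiaLo_PD1pos library under 1 CPM. Lad1, Lrig1, Pou2af1, Ptgfrn, Tnfsf8, Slamf6 and Nt5e were not peak genes on T cell core scaling, though their contrasts there stayed positive (0.53 to 1.61). Against SiaHi_PD1neg alone Lad1 and Lrig1 stayed above on that scaling (0.25 and 0.68). Pou2af1, Ptgfrn, Tnfsf8, Slamf6 and Nt5e lay below it (-0.24, -0.33, -0.31, -0.43 and -0.36), and thus between the other groups.

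Genes of the progenitor exhausted state were higher in 12 of 20 cases (60%, against 9.51% of all tested genes), with 0 lower (0%, against 7.66%) and 8 not called. Of these, 8 were peak genes (40%, against 3.17% of all tested genes): Dapl1, Slamf6, Xcl1, Tnfsf8, Ccr7, Cd200, Myb and Cxcr5. Dapl1 and Xcl1 kept that place on T cell core scaling. The median contrast was 0.89 with TMM and 0.02 on T cell core scaling, where all genes were at -0.86. Ccr7, the receptor that guides lymphocytes into lymph nodes, had 295, 362 and 456 CPM in SiaHi_PD1pos, against 155, 167 and 257 CPM in SiaHi_PD1neg and 104, 101 and 162 CPM in SiaLo_PD1pos, with a contrast of 1.27 (SE 0.19, adjusted p = 0.000709). Cd200, an immunoglobulin-family ligand of an inhibitory receptor on myeloid cells, had 104, 114 and 101 CPM in SiaHi_PD1pos, against 62.7, 65.2 and 47.9 CPM in SiaHi_PD1neg and 49.02, 48.1 and 37.97 CPM in SiaLo_PD1pos. For both genes the levels in SiaHi_PD1neg were mostly above those in SiaLo_PD1pos, with SiaHi_PD1pos above either.

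Myb, a transcription factor of self-renewing T cells, had 80.8, 54.2 and 86.7 CPM in SiaHi_PD1pos, against 34.5, 49.4 and 46.5 CPM in SiaHi_PD1neg and 37.02, 30.6 and 40.05 CPM in SiaLo_PD1pos, a contrast of 0.91 that was 0.04 on T cell core scaling. Cxcr5, the B follicle homing receptor, was low throughout, at 10.5, 6.297 and 7.63 CPM in SiaHi_PD1pos, against 4.08, 3.06 and 2.36 CPM in SiaHi_PD1neg and 3.08, 1.95 and 3.46 CPM in SiaLo_PD1pos, and its call (adjusted p = 0.0155, range 0.0112 to 0.134 without single libraries) was lost without SiaHi_PD1pos replicate 1. Tcf7, which encodes TCF-1 and was chosen after its values were seen, was no peak gene, with 205, 167 and 211 CPM in SiaHi_PD1pos, against 175, 164 and 173 CPM in SiaHi_PD1neg and 58.1, 46.1 and 68.2 CPM in SiaLo_PD1pos. Its SiaHi_PD1pos and SiaHi_PD1neg libraries overlapped, while both lay above SiaLo_PD1pos.

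Inhibitory receptors and other exhaustion genes included 12 higher (50%, against 9.51% of all tested genes) and 1 lower of 24, with 3 peak genes (12.5%, against 3.17%) and 1 trough gene (4.17%, against 3.41%). On T cell core scaling, where 58 of all 15292 tested genes were peak and 466 trough genes, the list held 0 peak and 7 trough genes. Ctla4 (CTLA-4, the inhibitory competitor of CD28) had 865, 819 and 855 CPM in SiaHi_PD1pos, against 149, 141 and 155 CPM in SiaHi_PD1neg and 813, 769 and 787 CPM in SiaLo_PD1pos, with a contrast of 1.31 (SE 0.09, adjusted p = 5.02e-06). It lay barely above SiaLo_PD1pos (0.10 on the log2 scale). Cd160 and Cd101, a pair of immunoglobulin-family surface receptors, had contrasts of 1.26 and 0.95. Cd38, an ectoenzyme that consumes NAD and is high in dysfunctional T cells, was the trough gene, with 45.1, 43.6 and 47.6 CPM in SiaHi_PD1pos, against 78.1, 78.7 and 92.9 CPM in SiaHi_PD1neg and 74.8, 65.9 and 61.6 CPM in SiaLo_PD1pos and a contrast of -0.72 (SE 0.12, adjusted p = 0.00179). It was a trough gene on T cell core scaling as well, and its SiaHi_PD1pos libraries stayed below every other library on both scalings. The list's median contrast was 0.51 with TMM and -0.37 on T cell core scaling, where all genes were at -0.86.

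Interleukin receptors gave 7 higher (35%, against 9.51% of all tested genes) and 1 lower (5%, against 7.66%) of 20, with Il2ra, Il1rl1 and Il27ra as peak genes (15%, against 3.17%). Il2ra, the high-affinity chain of the interleukin-2 receptor, had 129.7, 119 and 138 CPM in SiaHi_PD1pos, against 21.6, 21.7 and 22.5 CPM in SiaHi_PD1neg and 63.8, 82.1 and 79.9 CPM in SiaLo_PD1pos, with a contrast of 1.67 (SE 0.12, adjusted p = 5.02e-06). Il1rl1, the interleukin-33 receptor ST2, had 24.6, 20.8 and 26.2 CPM in SiaHi_PD1pos, against 2.84, 4.55 and 3.54 CPM in SiaHi_PD1neg and 13.8, 17.3 and 8.82 CPM in SiaLo_PD1pos, and was a peak gene on T cell core scaling like Il2ra. Il27ra, a chain of the interleukin-27 receptor, had a contrast of 0.64 with TMM and -0.25 on T cell core scaling, where all genes were at -0.86.

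Foxp3, the lineage factor of regulatory T cells, was a peak gene with 17.7, 19.1 and 23.5 CPM in SiaHi_PD1pos, against 11.3, 8.87 and 6.19 CPM in SiaHi_PD1neg and 1.41, 2.09 and 2.51 CPM in SiaLo_PD1pos and a contrast of 2.26 (SE 0.26, adjusted p = 0.00014). It was detected in every library, and SiaHi_PD1neg lay between the other groups. In a list of 12 CD4 and regulatory T cell markers, of which 11 were tested (Gpr83 had 17 reads in all), 7 were higher (63.6%, against 9.51% of all tested genes), 0 lower and 4 not called. The same 7 were peak genes (63.6%, against 3.17% of all tested genes): Foxp3, Il2ra, Tnfrsf18, Ctla4, Lrrc32, Capg and Izumo1r. On T cell core scaling Il2ra was the only 1 of them that remained a peak gene. Differences from SiaHi_PD1neg shifted by -1.89 on that scaling. Against SiaHi_PD1neg alone Foxp3, Lrrc32, Capg, Tnfrsf18 and Izumo1r then lay below (-0.69, -1.06, -1.22, -0.37 and -0.13). Il2ra and Ctla4 stayed above (0.67 and 0.62). Activated CD8 T cells are also known to transcribe Il2ra, Tnfrsf18 and Ctla4, so part of this list is shared with the lists above.

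The list summed to 1369 to 1510 CPM in SiaHi_PD1pos, 654.8 to 810.1 CPM in SiaHi_PD1neg and 1102 to 1132 CPM in SiaLo_PD1pos. Ctla4, with means of 847, 148 and 789 CPM in that order, made up much of the SiaHi_PD1pos and SiaLo_PD1pos sums. Cd4 itself had 26.1, 40.4 and 32.3 CPM in SiaHi_PD1pos, against 285, 412 and 264 CPM in SiaHi_PD1neg and 6.303, 3.39 and 2.85 CPM in SiaLo_PD1pos, which is -3.28 against SiaHi_PD1neg (adjusted p = 6.57e-07) and 2.95 against SiaLo_PD1pos (adjusted p = 0.00011) on the log2 scale. The part of regulatory T cells or other CD4 cells in the gate in the peak genes was not tested. Lrrc32, the latency-associated surface protein GARP, had a contrast of 1.18 and lost its call without SiaHi_PD1pos replicate 3 (adjusted p = 0.0574, range 0.0076 to 0.0574). Capg, an actin-capping protein, had 138, 270.3 and 137 CPM in SiaHi_PD1pos, against 119, 115 and 96.6 CPM in SiaHi_PD1neg and 103, 112 and 88.9 CPM in SiaLo_PD1pos, a contrast of 0.78 that was 0.38 without replicate 2 (adjusted p = 0.0504) and -0.16 on T cell core scaling.

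Homing and adhesion receptors gave 8 higher (38.1%, against 9.51% of all tested genes) and 3 lower (14.3%, against 7.66%) of 21, with 4 peak genes (19%, against 3.17%). Besides Ccr7, Ccr8 and Cxcr5, Itgb1, the β1 integrin chain, was a peak gene with 1483, 1151 and 1396 CPM in SiaHi_PD1pos, against 745, 695 and 673 CPM in SiaHi_PD1neg and 989, 918 and 1018 CPM in SiaLo_PD1pos, a contrast of 0.70 with TMM and -0.18 on T cell core scaling. Genes induced early after T cell receptor engagement went both ways, with 7 higher (28%) and 5 lower (20%) of 25. Batf, a partner of JUN and IRF4 in activated T cells, had 104, 105 and 84.3 CPM in SiaHi_PD1pos, against 34.6, 34.1 and 32.5 CPM in SiaHi_PD1neg and 78.1, 65.5 and 62.97 CPM in SiaLo_PD1pos, with a contrast of 1.02. Egr1, an immediate-early transcription factor, was a trough gene with 114, 115 and 125 CPM in SiaHi_PD1pos, against 148, 182 and 203 CPM in SiaHi_PD1neg and 146, 159.7 and 165 CPM in SiaLo_PD1pos. Its contrast was -0.50 (adjusted p = 0.011, range 0.0047 to 0.0693), and the call was lost without SiaHi_PD1pos replicate 1. Dgkz, a diacylglycerol kinase that damps receptor signalling, was the single peak gene among 25 feedback regulators (4%, against 3.17% of all tested genes), of which 10 were higher (40%, against 9.51%) and 0 lower, and had a contrast of 1.01 with TMM and 0.13 on T cell core scaling.

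Myc, a driver of growth and ribosome production, had 161, 162 and 150.3 CPM in SiaHi_PD1pos, against 53.05, 60.3 and 77.3 CPM in SiaHi_PD1neg and 118, 112 and 112 CPM in SiaLo_PD1pos, a contrast of 0.89 with TMM (adjusted p = 0.000354) that was -0.003 on T cell core scaling. Nfkbia, the inhibitor of NF-κB, was also a peak gene, with a contrast of 0.39 with TMM and -0.52 on T cell core scaling. Its call was lost without SiaHi_PD1pos replicate 1 or 2 or any SiaLo_PD1pos library (adjusted p up to 0.0786). Genes of nucleolar ribosome assembly (Nop, Nol, Rrp, Utp and Noc names, picked after seeing the data) were higher in 15 of 38 cases (39.5%, against 9.51% of all tested genes), and 0 were lower. Of them 8 were peak genes (21.1%, against 3.17%), 0 on T cell core scaling, where their median was -0.47 (all genes -0.86) against 0.43 with TMM. Slc16a1, the lactate transporter MCT1, was the peak gene among 20 glycolysis genes (5%, against 3.17% of all tested genes), 3 of which were higher (15%, against 9.51%). It had 108, 116 and 114 CPM in SiaHi_PD1pos, against 57.9, 26.5 and 25.4 CPM in SiaHi_PD1neg and 74.2, 73.8 and 82.1 CPM in SiaLo_PD1pos. Its contrast was 1.08 with TMM and 0.19 on T cell core scaling.

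Cell division genes were mostly called higher against the mean of the other groups. Of 30 S phase genes 27 were higher (90%, against 9.51% of all tested genes) and 4 were peak genes (13.3%, against 3.17%). Of 30 genes of G2 and mitosis 25 were higher (83.3%) and 0 were peak genes. Their median differences from SiaLo_PD1pos were 0.02 and -0.12 on the log2 scale, and those from SiaHi_PD1neg 1.78 and 1.68. Gins1, part of the replicative helicase, had 23.1, 24.4 and 25.4 CPM in SiaHi_PD1pos, against 5.03, 5.52 and 4.81 CPM in SiaHi_PD1neg and 19.9, 18.9 and 14.01 CPM in SiaLo_PD1pos and was a peak gene on both scalings. The other peak genes of S phase, Cdt1, Uhrf1 and Ccne1, had contrasts of 0.58, 0.88 and 0.88 with TMM, and of -0.30, -0.01 and -0.03 on T cell core scaling.

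The transcripts of PD-1, on which cells were sorted, of ST6GAL1, the enzyme that adds the sorted glycan, and of CD8α took intermediate places. Pdcd1 had 892, 864 and 939 CPM in SiaHi_PD1pos, against 77.5, 36.1 and 51.3 CPM in SiaHi_PD1neg and 1105, 1097 and 1163 CPM in SiaLo_PD1pos, so that all SiaHi_PD1pos libraries lay below all SiaLo_PD1pos libraries. St6gal1 had 55.8, 63.5 and 72.2 CPM in SiaHi_PD1pos, against 103, 105 and 87 CPM in SiaHi_PD1neg and 12.5, 7.08 and 17.5 CPM in SiaLo_PD1pos, the reverse order, and its contrast of 0.87 with TMM was -0.02 on T cell core scaling. Cd8a had 1418, 1489 and 1351 CPM in SiaHi_PD1pos, against 414, 491 and 428 CPM in SiaHi_PD1neg and 1720.0, 1755 and 1547 CPM in SiaLo_PD1pos, with a contrast of 0.72 with TMM and -0.17 on T cell core scaling. All genes were at -0.86 on that scaling. Cd8a is among the genes that set it, so its value there is tied to the scaling and is no separate result. T cell receptor signalling gave 18 higher (75%, against 9.51% of all tested genes) and 1 lower (4.17%, against 7.66%) of 24. Cytotoxic effectors gave 15 higher (60%) and 3 lower (12%) of 25. Both lists held 0 peak genes with TMM. On T cell core scaling 58 of all 15292 tested genes were peak genes and 466 trough genes. Each of these lists held 2 peak genes there, including Cd247 of the signalling list, itself in the scaling set. The signalling list held 1 trough gene on that scaling and the cytotoxic list 3. The median differences of the lists from SiaLo_PD1pos were 0.05 and -0.05. Among 14 tested sialyltransferases 1 was higher (St6gal1, 7.14%, against 9.51% of all tested genes) and 2 were lower (14.3%, against 7.66%). The list held 0 peak genes and 1 trough gene (7.14%, against 3.41%), St3gal6, which was not called and is named after its values were seen.

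**Figure D4:**
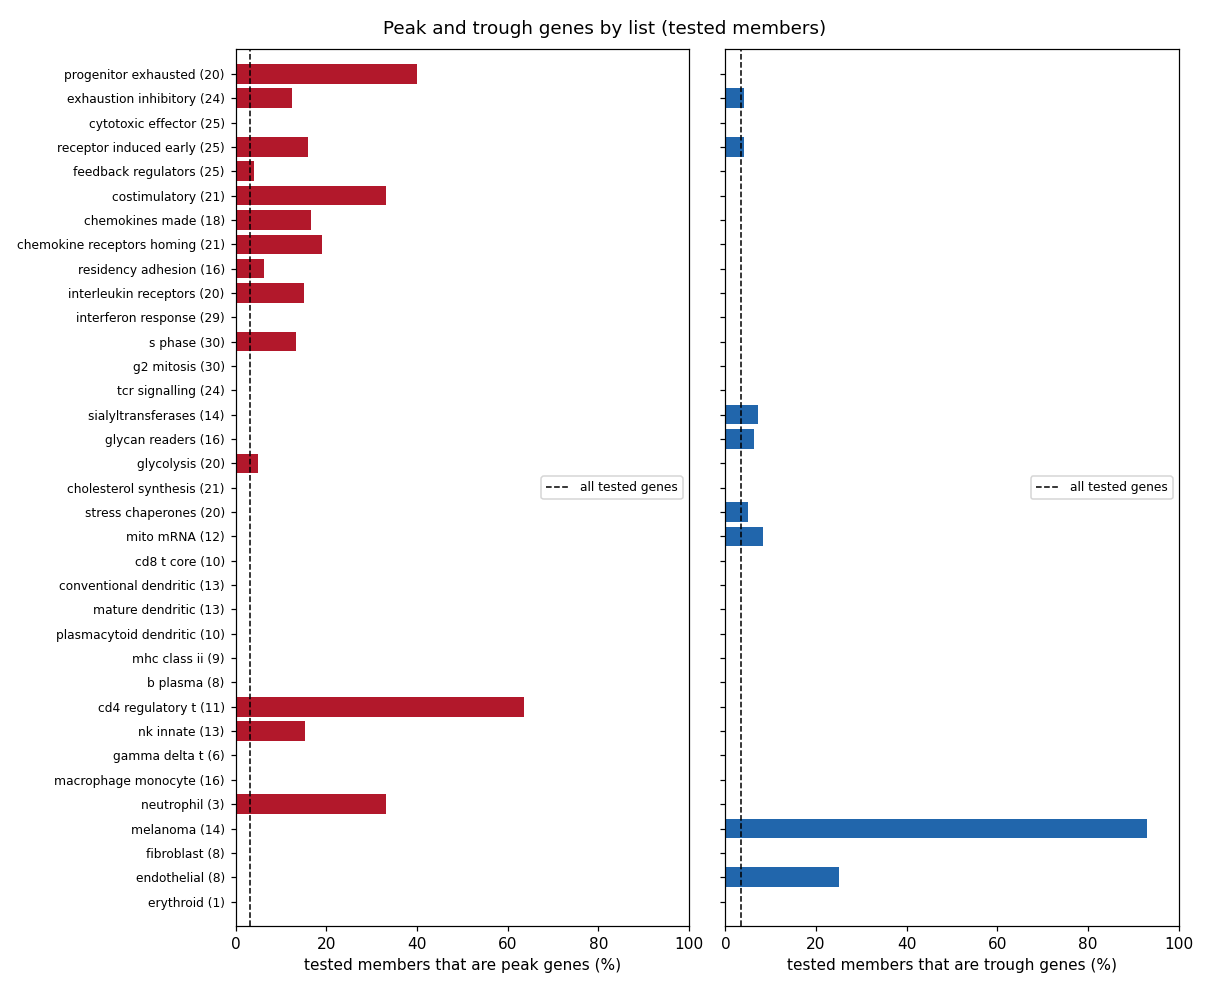
Share of the tested members of each gene list that were peak genes (left, red) or trough genes (right, blue) in TMM-scaled CPM, with the share among all tested genes as a dashed line (3.17% and 3.41%) and the number of tested members in brackets. Peak shares are 63.6% for CD4 and regulatory T cell markers, 40% for progenitor exhausted genes and 33.3% for costimulatory genes, and the trough share of melanoma markers is 92.9%.

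Most markers of the melanocyte lineage were trough genes. Of 14 melanoma markers 13 were lower (92.9%, against 7.66% of all tested genes). The same 13 were trough genes (92.9%, against 3.41%), the exception being Ednrb, named after its values were seen. On T cell core scaling 11 of the 14 were trough genes, against 466 of all 15292 tested genes. Their summed level was 982.8 to 1128 CPM in SiaHi_PD1pos, 4511 to 9472 CPM in SiaHi_PD1neg and 1902 to 3819 CPM in SiaLo_PD1pos. No marker of the list was at 0 in any group. Tyrp1, an enzyme of pigment synthesis, had 313, 296 and 328 CPM in SiaHi_PD1pos, against 3053, 1523 and 2746 CPM in SiaHi_PD1neg and 737, 606 and 1172 CPM in SiaLo_PD1pos, with a contrast of -2.19 (SE 0.25, adjusted p = 0.00011). Dct, dopachrome tautomerase, another enzyme of that pathway, had 221, 204 and 255 CPM in SiaHi_PD1pos, against 2172, 1027 and 1885 CPM in SiaHi_PD1neg and 553, 454 and 865 CPM in SiaLo_PD1pos, with a contrast of -2.18 (SE 0.25, adjusted p = 0.000134). Mitf, the master transcription factor of melanocytes, had 22.6, 18.5 and 27.7 CPM in SiaHi_PD1pos, against 148, 82.5 and 131 CPM in SiaHi_PD1neg and 40.4, 39.6 and 64.1 CPM in SiaLo_PD1pos, with a contrast of -1.73 (SE 0.23, adjusted p = 0.000345). The groups did not overlap for any of these, and SiaHi_PD1pos was the lowest in each.

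Of the 15 leading trough genes, 12 were trough genes on T cell core scaling. None of the 14 melanoma markers was among the 15, which included Tlcd4, Fgf1, Trim63, Phldb2, Scn8a, Kcnj13, Eya1, Vgll3, Nrcam, Ano3, Pik3r3, Tspan10, S100b and Unc5c. They include a growth factor (Fgf1), a sodium and a potassium channel (Scn8a and Kcnj13), a guidance receptor of neurons (Unc5c) and a muscle ubiquitin ligase (Trim63). Tlcd4 had 1.05, 0.315 and 0.393 CPM in SiaHi_PD1pos, against 14.6, 7.83 and 25.04 CPM in SiaHi_PD1neg and 5.7, 3.75 and 5.97 CPM in SiaLo_PD1pos, with a contrast of -3.91 (SE 0.54, adjusted p = 0.000426). S100b, a calcium-binding protein of glia and melanoma, had 9.06, 10.6 and 5.04 CPM in SiaHi_PD1pos, against 91.96, 42.5 and 69.8 CPM in SiaHi_PD1neg and 24.1, 14.2 and 31.8 CPM in SiaLo_PD1pos. Nrcam, a neuronal adhesion molecule, had 10.6, 7.4 and 12.98 CPM in SiaHi_PD1pos, against 116, 67.6 and 124 CPM in SiaHi_PD1neg and 29.6, 19.9 and 46.2 CPM in SiaLo_PD1pos. In each of these genes SiaLo_PD1pos lay between the other groups, as it did for the melanoma markers. Differences of the 13 melanoma markers ranged between -2.96 and -2.33 over SiaHi_PD1neg and between -1.46 and -1.07 over SiaLo_PD1pos. Of the 314 other trough genes that were called lower, 48 lay within both of these ranges and 142 had smaller differences than both. The part of melanoma RNA in the trough genes was not tested.

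**Figure D5:**
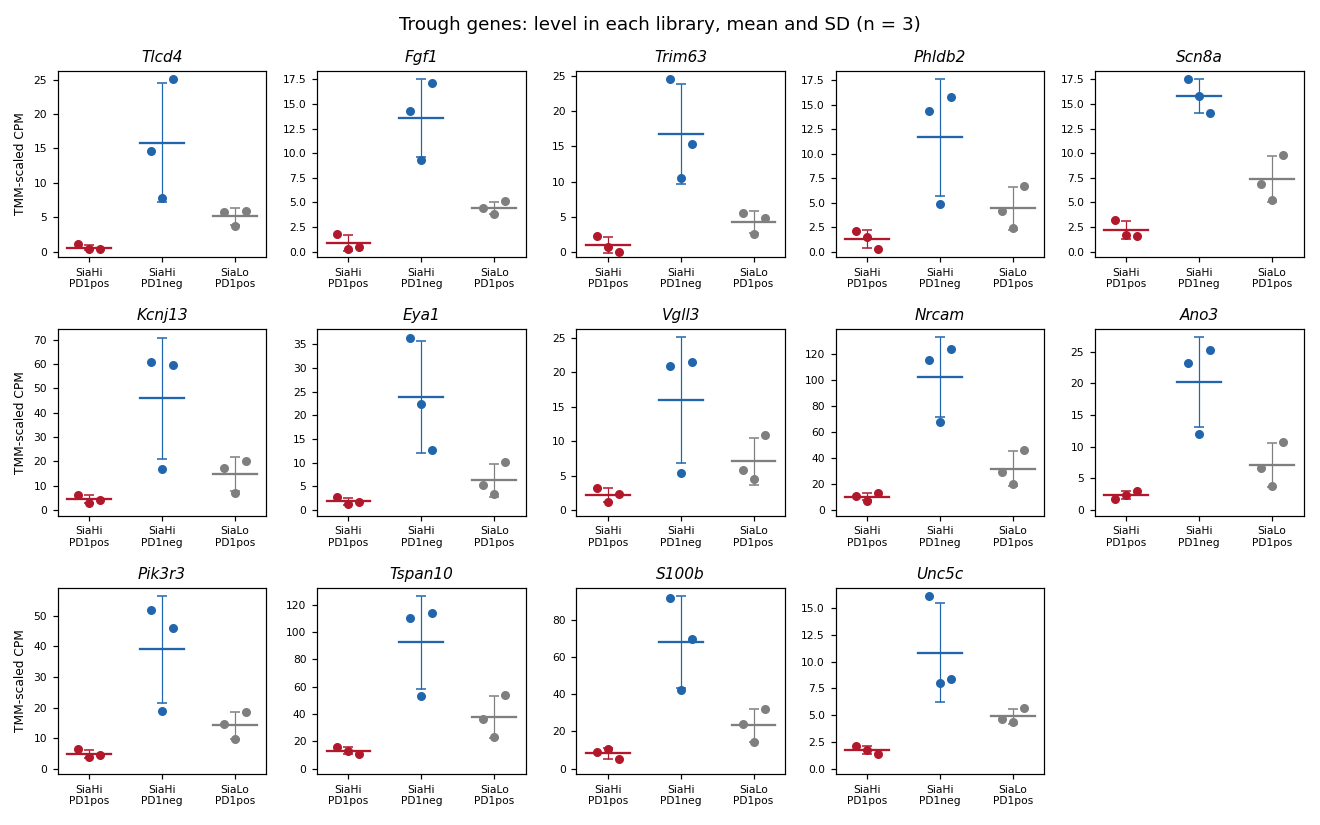
TMM-scaled CPM of 14 leading trough genes in each library (points), with group means and SDs (lines and bars, n = 3 each) and a separate axis from 0 for each gene, SiaHi_PD1pos on the left. In each panel the 3 SiaHi_PD1pos libraries are the lowest, and on average SiaLo_PD1pos is intermediate and SiaHi_PD1neg the highest.

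The start regions of 3 pigment genes are shown because they share the M-box, a motif bound by MITF in melanocytes. They are 300 bases each from RefSeq on GRCm38.p6, taken as above, with matches in capitals. Tyrp1 lies at chr4:80833963-80834262 (plus strand), Dct at chr14:118052197-118052496 (minus strand) and Tyr, the first enzyme of pigment synthesis, at chr7:87493463-87493762 (minus strand).
Tyrp1: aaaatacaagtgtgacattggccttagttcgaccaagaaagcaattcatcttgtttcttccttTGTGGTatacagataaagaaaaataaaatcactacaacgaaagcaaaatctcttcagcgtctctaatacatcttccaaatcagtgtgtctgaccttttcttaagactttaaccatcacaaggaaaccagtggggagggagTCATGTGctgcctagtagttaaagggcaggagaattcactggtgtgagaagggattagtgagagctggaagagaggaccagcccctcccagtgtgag
Dct: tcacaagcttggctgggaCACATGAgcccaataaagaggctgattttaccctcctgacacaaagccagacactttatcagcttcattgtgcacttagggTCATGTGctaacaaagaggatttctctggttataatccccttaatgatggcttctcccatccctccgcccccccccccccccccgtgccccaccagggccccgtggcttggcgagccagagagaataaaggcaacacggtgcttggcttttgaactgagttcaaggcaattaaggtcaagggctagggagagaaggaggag
Tyr: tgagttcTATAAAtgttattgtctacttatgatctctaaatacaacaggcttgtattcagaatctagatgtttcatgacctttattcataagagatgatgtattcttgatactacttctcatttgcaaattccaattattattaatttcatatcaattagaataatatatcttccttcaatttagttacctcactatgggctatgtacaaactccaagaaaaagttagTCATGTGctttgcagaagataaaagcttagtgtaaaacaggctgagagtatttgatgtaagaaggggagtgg

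The M-box started 47 bases before the start in Tyrp1, 22 bases before it in Tyr, and 151 and, on the opposite strand, 232 bases before it in Dct. Other capitals mark a RUNX motif in Tyrp1 and a TATA box in Tyr. Of 12 melanoma trough markers with a mean of at least 5 CPM, 7 had a promoter entry, and 4 of these held the M-box. Among the nameable trough genes 178 had an entry and 14 of them (7.87%) held it, against 1 of 209 peak genes (0.478%), 2.32% of tested genes and 3.74% of all promoters. Shares of the other motifs among trough genes were 12.9% for the E-box, 15.7% for the NFAT core, 7.87% for AP-1, 12.4% for RUNX, 8.99% for TCF/LEF and 8.43% for the TATA box.

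Trough genes outside the melanocyte lineage were fewer in the lists. Of 12 mitochondrially encoded mRNAs 9 were lower (75%, against 7.66% of all tested genes) and 1 was a trough gene (8.33%, against 3.41%), mt-Nd5, with 1803, 2159 and 1575 CPM in SiaHi_PD1pos, against 7078, 4689 and 4808 CPM in SiaHi_PD1neg and 3191, 3017 and 2350.0 CPM in SiaLo_PD1pos. Its SiaLo_PD1pos libraries lay between the other groups. Of 8 endothelial markers 5 were lower (62.5%) and 2 were trough genes (25%), Cdh5 (VE-cadherin, contrast -1.47) and Cldn5 (claudin-5, -1.61), the second called in 2 of the 9 fits that leave out a library (adjusted p = 0.0302, range 0.00735 to 0.111). The endothelial list summed to 136 to 163.8 CPM in SiaHi_PD1pos, 414.8 to 574.3 CPM in SiaHi_PD1neg and 121.9 to 152.6 CPM in SiaLo_PD1pos, and its part in these genes was not tested.

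Conventional and plasmacytoid dendritic cell transcripts were mostly called lower without being trough genes. Of 13 conventional dendritic cell markers 10 were lower, of 10 plasmacytoid markers 8 and of 9 MHC class II genes 6 (all tested genes, 7.66%), with 0 trough genes among them. Markers of mature dendritic cells were mostly not called, with 1 higher, 1 lower and 11 not called of 13 and a median contrast of -0.002. Their medians were -1.38 against SiaHi_PD1neg and 1.03 against SiaLo_PD1pos, with the same signs as conventional dendritic markers (-2.85 and 1.06). They summed to 1092 to 1452 CPM in SiaHi_PD1pos, 1080 to 1217 CPM in SiaHi_PD1neg and 1699 to 1862 CPM in SiaLo_PD1pos. Ccl5, the most abundant of the list, made up a large part of these sums, with means of 674, 201 and 1295 CPM in that order. Its differences, 1.745 against SiaHi_PD1neg and -0.94 against SiaLo_PD1pos, had signs opposite to the list's medians, so the sums do not describe the list as a whole. Siglech, the plasmacytoid dendritic cell lectin, had 11.6, 20.2 and 13.2 CPM in SiaHi_PD1pos, against 610.5, 1265 and 790.3 CPM in SiaHi_PD1neg and 3.49, 2.31 and 2.08 CPM in SiaLo_PD1pos. Cd74, the MHC class II chaperone and most abundant of its list, had 1025, 1925 and 1182 CPM in SiaHi_PD1pos, against 6860.0, 6193 and 6051 CPM in SiaHi_PD1neg and 780.2, 597 and 675 CPM in SiaLo_PD1pos, and its call (adjusted p = 0.0365, range 0.000211 to 0.201) held in 2 of 9 fits that leave out a library. Interferon response genes were lower in 14 of 29 cases (48.3%) and higher in 1, also with 0 trough genes, and their median was -1.03 against SiaHi_PD1neg and 0.17 against SiaLo_PD1pos.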

How the data were processed

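The deposited table held counts, whole reads per gene that the authors obtained by trimming with Trim Galore 0.6.5, alignment with STAR 2.7.6a and counting with featureCounts 1.6.3 on GRCm38, per the submitters' processing notes. For strandedness and reads shared between genes, the setting was not given in the sources used here. RNA was selected with poly-T beads, and no molecular identifiers are described. Gene coordinates in the table matched a GRCm38 annotation in 2.74% of 49295 genes, so none are printed.

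From these counts, 15292 of 56860 genes passed edgeR's filterByExpr (29580 had no count and 11988 had too few), a filter that a gene can pass through a single group. Libraries were scaled with TMM. All 9 entered a single quasi-likelihood fit with a mean per group (edgeR 4.0.16, limma 3.58.1, R 4.3.3), with 6 residual degrees of freedom, a biological coefficient of variation of 0.313 and a Benjamini-Hochberg threshold of 0.05 over all tested genes. A standard error is the log2 difference over the root of its F value. TMM-scaled CPM give levels. Pairwise comparisons share the SiaHi_PD1pos libraries and are not independent.

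Members and gene lists were chosen with earlier results of these data known, so counts per list are descriptions and no list was tested. Genes named were the 15 called peak and 15 called trough genes with the largest smaller-sized pairwise difference (mean of at least 5 CPM, no gene models, pseudogenes or receptor segments), called members of lists that were peak or trough genes, up to 3 list members with the smallest p, the most abundant marker of each list, and Pdcd1, St6gal1, Cd8a, Cd8b1, Cd3e and Cd4; 1 gene that the rule names is not reported here, and not all others are printed. Alternatives were DESeq2 1.42.0 (test or size factors), limma-voom with sample weights, T cell core scaling, other filters, a replicate block, a 2-fold threshold, a 1.5 times margin and leaving out each library. The procedure was tested on simulated data. Replicates differed by more than sampling noise (chi-square per degree of freedom 6.63 to 51.7), so none was counted as a copy.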

Additional observations from a re-analysis of the deposited data

How the results depend on the processing

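T cell core scaling gave 171 genes higher and 9433 lower than the mean of the other groups, 0 above both and 58 peak genes. A threshold of 2-fold left 345 higher and 678 lower, and a margin of 1.5 times left 42 peak and 90 trough genes. Limma-voom with sample weights gave 2647 higher, 2250 lower, 50 above both and 11 below both. DESeq2's test gave 19 above both and 25 below both, and no filter on low counts 28 and 73. Correlations of same-numbered deviations over all genes were low (-0.00822 to 0.101), which does not exclude a tie between samples of the same replicate number. Stress chaperone sums were highest (16950, 16070 and 16030 CPM in SiaHi_PD1pos, SiaHi_PD1neg and SiaLo_PD1pos) and melanoma sums lowest (982.8, 4511 and 1902 CPM) in replicate 2 of every group. S phase sums were highest in replicate 1 of SiaHi_PD1pos and SiaHi_PD1neg and in replicate 2 of SiaLo_PD1pos. What the replicate numbers share was not tested. A replicate block gave 1551 higher, 1210 lower, 9 above both and 8 below both. Leaving out single libraries gave 760 to 1721 higher, 587 to 1245 lower, 2 to 6 above both and 0 below both in every such fit. It gave 544 to 1125 peak and 591 to 967 trough genes, fewer libraries having to be exceeded. With DESeq2's size factors or the stricter filter, each of the 6 counts stayed within 1.5 times its value. T cell core scaling shifted the median contrast of all tested genes by -0.89, to -0.86, so values on it are read against -0.86. Cd8a and Cd8b1 are among the genes that set this scaling, so their values there are tied to it. On T cell core scaling the contrast turned negative for St6gal1 (-0.02), Cd8a (-0.175), Cd8b1 (-0.146), Capg (-0.155), Itgb1 (-0.18), Il27ra (-0.245), Myc (-0.003), Nfkbia (-0.521), Cdt1 (-0.296), Uhrf1 (-0.01) and Ccne1 (-0.035). Another 18 of the 79 named genes kept a positive contrast but lost their call on it: Pou2af1, Cxcr5, Myb, Ccr7 (adjusted p = 0.188), Cd200 (0.308), Cd160, Cd101, Batf (0.438), Lta, Dgkz, Tnfrsf18 (0.555), Tnfsf14, Gins1, Slc16a1, Lrrc32, Izumo1r, Gata3 and Tcf7. All these contrasts stayed above -0.86. Calls were made against 0, so the shift alone can move a sign or a call. Whether these genes changed relative to the others was not tested. Depth was lowest in SiaHi_PD1neg replicate 3 (9714020 reads), and genes under a mean of 5 CPM were not among the leading genes.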

Other observations

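Other gene families were counted by name after the data were seen. Their counts stand beside the shares of all tested genes, 9.51% higher, 7.66% lower, 3.17% peak and 3.41% trough genes. Of 86 cytosolic ribosomal protein genes 38 were higher in SiaHi_PD1pos than in the mean of the other groups (44.2%) and 3 were peak genes (3.49%), with a median contrast of 0.43 with TMM and -0.49 on T cell core scaling (all genes -0.86). The highest sum of the family was in SiaHi_PD1pos replicate 2. Of 12 eIF3 translation initiation subunits 5 were higher (41.7%) and 4 were peak genes (33.3%), and of 7 chaperonin (Cct) subunits 6 were higher (85.7%) and 2 were peak genes (28.6%), each with 0 peak genes on T cell core scaling. Among 17 subunits of the vacuolar proton pump 9 were lower (52.9%) and 2 were trough genes (11.8%), among 28 collagens 11 were lower (39.3%) and 1 was a trough gene (3.57%), and among 13 cathepsins 5 were lower (38.5%) and 1 higher.

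Of 160 tested T cell receptor and immunoglobulin segments 6 were peak genes, near the share of all tested genes (3.17%), and 0 were trough genes. Among 13 NK and innate lymphoid markers 6 were higher (46.2%) and 1 lower (7.69%), and Gata3, a factor of type 2 immunity that T cells also use, was a peak gene with a contrast of 1.17. Of 16 macrophage and monocyte markers 1 was lower (6.25%) and 0 higher. Of 21 cholesterol synthesis genes 3 were lower (14.3%) and 0 higher, and of 16 glycan-binding receptors 3 were lower (18.8%) and 0 higher.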
